A study of Mus musculus with 17 samples.

Results

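The cells described here are the tanycytes of the mouse hypothalamus, taken as every cell that carries the name Tany in the cluster names deposited with the series. The rule found 609 cells, 4.22% of all annotated cells, while 13828 cells carry other names, and 2 neighbouring classes of glia, Ependy (ependymal cells, 413 cells) and Astro (astrocytes, 1148 cells), were set beside them. RNA of single cells was captured by Drop-seq, in which a droplet holds a cell and a barcoded bead and each captured transcript receives a unique molecular identifier (UMI), so that a count is a number of molecules. The groups were 3 mice deprived of food for 24 hours and 5 mice fed normally, all B6D2F1 hybrids (C57BL6 female X DBA2 male), with the whole hypothalamus dissected and dissociated in each. Age and sex are not given in the labels used here. By the labels, 5 batches were run. Food-deprived replicate 1 shared batch 1 with normal replicate 3, and food-deprived replicate 2 shared batch 2 with normal replicate 4. Food-deprived replicate 3 was alone in batch 4, normal replicate 5 alone in batch 3, and normal replicates 1 and 2 made up batch 0. The mouse was the replicate, and its libraries were summed. Values of single mice are listed by replicate number, 1 to 3 in food-deprived mice and 1 to 5 in normal mice unless fewer are named.

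Tanycytes line the floor and lower walls of the third ventricle and send a long process into the hypothalamus or to the vessels of the median eminence. They are known for converting the thyroid prohormone T4 into active T3, for carrying blood-borne signals between blood, ventricular fluid and neurons, for forming a barrier at the median eminence, and for keeping features of neural progenitors. Tanycytes of the lateral wall (alpha) and of the ventricle floor (beta) differ in position and in the genes they express.

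Sequence upstream of the start site is given for 3 genes that carry results below, from RefSeq on GRCm38.p6 (the deposited counts used mm9). Each stretch is the 250 bases before the first listed start, 5′ to 3′ on the gene's strand. Capitals mark matches to a searched motif. Dio2 encodes the T4-activating deiodinase and is shown as a marker of the class, with a match to CAATTA, a sequence bound by homeodomain proteins such as the tanycyte factors Rax and Lhx2. Cxcl10, a chemokine, and Irgm1, a GTPase, are both induced by interferons and were higher in tanycytes with Col25a1, and they are shown with matches to the core of the interferon-response element, TTTC, any 2 bases and TTTC, which reads GAAA, any 2 bases and GAAA on the other strand.
Dio2 (chr12:90739039-90739288, minus strand): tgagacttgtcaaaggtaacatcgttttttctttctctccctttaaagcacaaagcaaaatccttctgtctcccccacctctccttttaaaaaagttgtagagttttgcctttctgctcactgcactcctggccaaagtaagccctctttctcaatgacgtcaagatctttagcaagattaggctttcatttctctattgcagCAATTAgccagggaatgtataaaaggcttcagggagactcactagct
Cxcl10 (chr5:92348890-92349139, minus strand): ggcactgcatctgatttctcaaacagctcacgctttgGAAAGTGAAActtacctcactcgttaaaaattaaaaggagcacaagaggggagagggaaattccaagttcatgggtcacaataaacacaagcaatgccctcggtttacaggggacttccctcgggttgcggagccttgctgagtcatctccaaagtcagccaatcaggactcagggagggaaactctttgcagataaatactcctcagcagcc
Irgm1 (chr11:48871421-48871670, minus strand): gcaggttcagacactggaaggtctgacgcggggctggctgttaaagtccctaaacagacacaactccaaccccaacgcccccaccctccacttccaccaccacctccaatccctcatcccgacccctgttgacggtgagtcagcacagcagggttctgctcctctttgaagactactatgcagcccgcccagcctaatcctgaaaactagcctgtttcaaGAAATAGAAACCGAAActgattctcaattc
Irgm1 holds 2 overlapping matches and Cxcl10 holds 1. Both strands were searched. Of all 27025 upstream stretches of this length, 3.04% held the interferon element, 7.34% held CAATTA, 4.90% held TAATTA and 11.5% held either of the homeodomain sequences.

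Tany cells numbered 58, 81 and 213 in food-deprived replicates 1 to 3 and 14, 16, 82, 30 and 115 in normal replicates 1 to 5. Their summed UMIs ran from 306982 to 486535 in food-deprived mice and from 31034 to 351758 in normal mice, with a median of 2134 UMIs in a Tany cell, 2368 in an Ependy cell and 1300 in an Astro cell. Normal replicates 1 and 2 held fewer than 20 Tany cells and stayed out of the main tests of food deprivation on gene levels. A single deep cell gave 10.8% of the Tany UMIs of food-deprived replicate 1, and another 21.4% of those of normal replicate 4. The libraries were of 2 kinds, 8 with Gapdh at 149 to 812 CPM (counts scaled to a total of 1000000 UMIs) and 9 with Gapdh at 4.36 to 8.45 CPM. The Tany cells of food-deprived replicate 3 and of normal replicates 1, 2 and 5 all came from libraries with higher Gapdh, and those of normal replicate 3 all from the low-Gapdh kind. Across the series, 161 annotated barcodes occurred in more than 1 library, 4 of them of Tany cells.

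The 5 marker genes of the class were present in the Tany cells of every mouse, apart from Dio2 in normal replicate 2, and 4 of the 5 separated Tany from Ependy and Astro by their mean levels. Levels are CPM on the summed UMIs of a class in a mouse, and class means use the 6 mice in which each class had at least 20 cells (food-deprived replicates 1 to 3 and normal replicates 3 to 5). Because the clusters were made from these same genes, the class differences are a description with no test. Rax, a homeobox factor of the retina and the tanycyte lineage, stood at 147, 352 and 393 CPM in the food-deprived mice and at 290, 322, 407, 424 and 266 CPM in normal replicates 1 to 5. Only food-deprived replicate 1 lay far below the others. Its class means were 331 ± 106 CPM in Tany, 0.882 ± 2.16 CPM in Ependy and 12.3 ± 12.8 CPM in Astro (SD, n = 6 mice). Col23a1, a transmembrane collagen, stood at 892, 974 and 758 CPM in food-deprived mice and at 556, 838, 1058, 699 and 935 CPM in normal mice, which overlap. It averaged 886 ± 135 CPM in Tany, against 25.2 CPM in Ependy and 41.1 CPM in Astro.

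Crym and Dio2 both act on thyroid hormone, Crym as a cytosolic protein that binds T3. Crym stood at 305, 368 and 236 CPM in food-deprived mice and at 532, 96.7, 313, 757 and 291 CPM in normal mice. It averaged 378 ± 190 CPM in Tany, 6.04 CPM in Ependy and 95.8 CPM in Astro, and in Astro 1 mouse reached 368 CPM. Dio2 stood at 137, 160 and 218 CPM in food-deprived mice and at 24.2, 0, 154, 133 and 218 CPM in normal mice, with the low values in the replicates of few cells. It averaged 170 ± 38.7 CPM in Tany, 0.674 CPM in Ependy and 58.6 CPM in Astro. Scn7a, which encodes a sodium-sensing channel of the circumventricular organs, did not separate Tany from Ependy. It averaged 287 ± 249 CPM in Tany, 192 ± 64.4 CPM in Ependy and 2.02 CPM in Astro, and Tany was the highest of these classes in 3 of 6 mice.

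**Figure D1:**
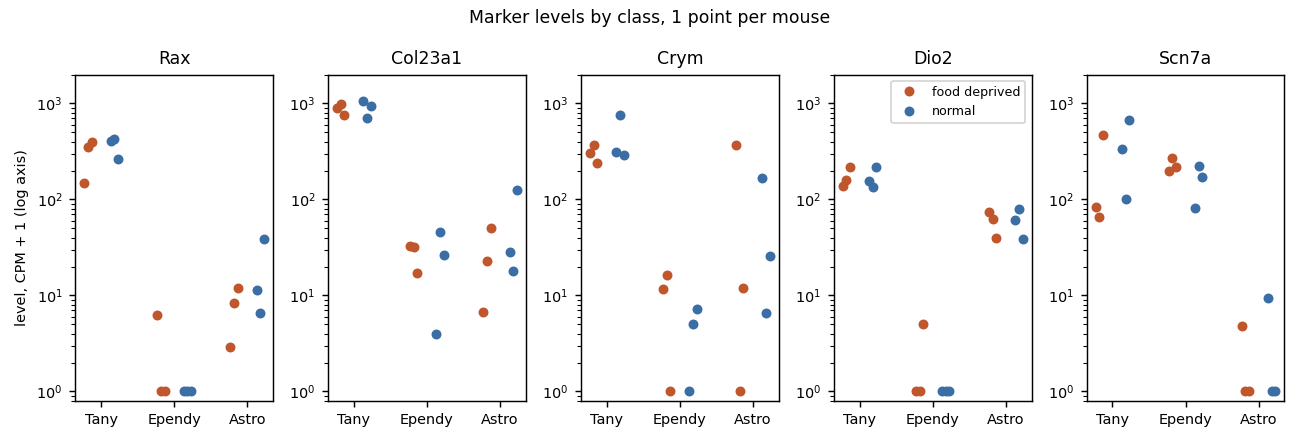
Levels of the 5 markers (CPM + 1, log axis) in Tany, Ependy and Astro, with 1 point per mouse, food-deprived mice in orange and normal replicates 3 to 5 in blue. Rax and Col23a1 are higher in Tany in all 6 mice, while the Scn7a points of Tany, 65.2 to 669 CPM, overlap those of Ependy.

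At the level of cells, a Rax UMI was seen in 47.5% of Tany cells and a Col23a1 UMI in 73.4%, with 34.7% for Crym, 27.3% for Dio2 and 17.9% for Scn7a. In the class MO, cells of the oligodendrocyte lineage whose median was 2187 UMIs, the shares were 0.169%, 0.650%, 0.367%, 0.367% and 0.198% in the same order. With each cell thinned to 800 UMIs, Rax was seen in 22.2% of Tany cells, 0% of Ependy cells, 0.697% of Astro cells and 0.0847% of MO cells.

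Beyond the markers, 318 of the 2030 genes at 100 CPM or more in Tany were highest in Tany in all 6 mice, and the 20 that stood furthest above both other classes were picked out. In order, by the smaller of the log2 ratios to Ependy and Astro with 5 CPM added, those reported here were Gpc3, Frzb, Rax, Col23a1, Fgf10, 6330403K07Rik, Mest, Col25a1, Cited1, Kctd14, Tbx3, Deptor, Nt5dc2, Rbp4, Lhx2, Efna5, E030019B13Rik, Cxcl10 and Fzd5. The smaller log2 ratio ran from 4.59 for Gpc3 to 2.77 for Fzd5, and the next gene, Rcn1, stood at 2.70. The set includes Rax and Col23a1 and none of the other 3 markers. Gpc3, a cell-surface proteoglycan that binds growth factors, averaged 289 ± 109 CPM in Tany, 4.13 CPM in Ependy and 7.21 CPM in Astro. Frzb, a secreted Wnt antagonist, varied least between mice, with 195 ± 22.0 CPM in Tany, 0.441 CPM in Ependy and 3.97 CPM in Astro. Fgf10, a fibroblast growth factor, stood at 131 ± 40.1 CPM in Tany, 3.13 CPM in Ependy and 1.27 CPM in Astro.

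The transcription factors Lhx2 and Tbx3 averaged 180 ± 33.5 and 118 ± 30.1 CPM in Tany, and neither passed 16.1 CPM as a mean in the other classes. Deptor, an inhibitor of the kinase mTOR, averaged 114 ± 46.8 CPM in Tany, 1.79 CPM in Ependy and 6.31 CPM in Astro. Mest, an imprinted gene, averaged 357 ± 185 CPM in Tany, 7.91 CPM in Ependy and 19.0 CPM in Astro. The transcript 6330403K07Rik averaged 12410 ± 2891 CPM in Tany, 429 CPM in Ependy and 773 CPM in Astro, and a UMI of it was seen in 97.5% of Tany cells and also in 39.2% of MO cells. Of the 23 genes formed by the markers and these 20, 16 had an upstream sequence in the RefSeq table, and 2 of the 16 (Dio2 and Rbp4) held CAATTA or TAATTA, against 11.5% of all stretches.

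Of the genes of thyroid hormone handling, Tshr, the thyrotropin receptor, was highest in Tany in all 6 mice, at 103 ± 12 CPM, against 14.8 CPM in Ependy and 1.87 CPM in Astro. Dio3, the deiodinase that inactivates the hormones, averaged 31.8 CPM in Tany, 0 in Ependy and 1.94 CPM in Astro. Slco1c1, a T4 transporter, was lower in Tany than in Astro, at 27.3 CPM in Tany, 14.8 CPM in Ependy and 189 CPM in Astro.

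Of the retinoid genes, Rbp4, the plasma carrier of retinol, averaged 221 ± 51.4 CPM in Tany, 20.4 CPM in Ependy and 15.6 CPM in Astro. Stra6, its membrane receptor, and Crabp2, a carrier of retinoic acid, averaged 8.59 and 20.6 CPM in Tany and were at 0 in Ependy and Astro. Of the glucose and lactate genes, Ldha, a lactate dehydrogenase subunit, averaged 441 ± 51.6 CPM in Tany, 129 CPM in Ependy and 147 CPM in Astro. Slc2a1, the glucose transporter GLUT1, was lowest in Tany, at 148 CPM in Tany, 755 CPM in Ependy and 216 CPM in Astro. Slc2a2 (GLUT2) and Glp1r (the GLP-1 receptor) were at 0 in the Tany sums of all 6 mice.

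Of the receptors for other blood-borne hormones, Igf1r, the receptor of insulin-like growth factor, averaged 101.5 CPM in Tany, 188 CPM in Ependy and 113 CPM in Astro. Insr, the insulin receptor, and Ghr, the growth hormone receptor, averaged 21.1 and 16.8 CPM in Tany. Lepr, the leptin receptor, had 1 UMI in all Tany cells, and Ghsr, the ghrelin receptor, had 0. The orphan receptor Gpr50 averaged 23.4 ± 18 CPM in Tany and was at 0 in Ependy and Astro. Of the junction genes, Cldn10 (a claudin) averaged 554 ± 231 CPM in Tany, 5.74 CPM in Ependy and 1003 CPM in Astro, and Cdh2 (N-cadherin) 354 ± 83.1 CPM in Tany, 66.6 CPM in Ependy and 142 CPM in Astro. Of the secreted products, Cst3 (cystatin C) averaged 36680 ± 6740 CPM in Tany, 3433 CPM in Ependy and 22570 CPM in Astro. Ptn (pleiotrophin) averaged 3658 ± 846 CPM in Tany, 109 CPM in Ependy and 1401 CPM in Astro.

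Progenitor genes were mixed, with 6 of 33 listed genes highest in Tany in every mouse. Of the 33, 18 were at 100 CPM or more in Tany. Over all genes at that level, 318 of 2030 were highest in Tany in every mouse. Hes1, a Notch target, averaged 1480 ± 451 CPM in Tany, 408 CPM in Ependy and 363 CPM in Astro. Nes (nestin) and Vim (vimentin), the intermediate filaments of radial glia, averaged 418 and 1019 CPM in Tany, 568 and 1348 CPM in Ependy, and 26.2 and 184 CPM in Astro. The proliferation genes Mki67 and Top2a had no UMI in the Tany sums of these mice. Immediate early genes were found in all 3 classes, and Fos, a transcription factor induced by stimulation and by tissue dissociation, averaged 6710 ± 1059 CPM in Tany, 3580 CPM in Ependy and 3045 CPM in Astro. Of 20 listed genes, 18 of them at 100 CPM or more in Tany, 8 were highest in Tany in every mouse, beside the same 318 of 2030.

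Markers of other cell types were also present in Tany, those of Ependy and Astro at sums below the means of these classes. The 7 ependymal markers summed to 1262 to 1410 CPM in the Tany cells of food-deprived mice and 1364 to 2030 CPM in those of the 5 normal mice. Their mean sum was 13410 CPM in Ependy and 142 CPM in Astro. The 8 astrocyte markers summed to 3775 to 5202 CPM in food-deprived mice and 2718 to 5607 CPM in normal mice, against 18070 CPM in Astro and 1828 CPM in Ependy. In the 3 normal mice of the tests the astrocyte sum in Tany lay between 2718 and 3653 CPM, below all food-deprived mice. The oligodendrocyte markers summed to 199 to 984 CPM in food-deprived mice and 459 to 3467 CPM in normal mice, with the highest value in normal replicate 5. Neuronal markers summed to 306 to 1163 CPM in food-deprived mice and 96.7 to 466 CPM in normal mice, with the highest value in food-deprived replicate 1. The microglial marker Tmem119, the pars tuberalis markers Tshb and Pitx1, the choroid plexus markers Kl and Kcnj13, and the haemoglobin genes Hbb-b1, Hbb-b2, Hba-a1 and Hba-a2 were at 0, while the beta-globin gene Beta-s averaged 19.3 CPM in Tany, 18.2 CPM in Ependy and 43.4 CPM in Astro. In 14 Tany cells, over 0.5% of UMIs were markers of oligodendrocytes, their precursors, neurons (without Snhg11), vessels or microglia, 6 of them in food-deprived replicate 1. Markers of blood and of the other listed types were not counted there.

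The share of Tany among annotated cells did not differ between the groups beyond the spread between mice. It was 1.58%, 2.73% and 16.6% in food-deprived replicates 1 to 3 and 10.9%, 10.1%, 3.19%, 1.70% and 6.11% in normal replicates 1 to 5. Food-deprived mice held both the lowest and the highest share. Mice of batches 1 and 2 held 1.58% to 3.19%, and mice of the other batches 6.11% to 16.6%. In batch 1 the food-deprived mouse was the lower (1.58% against 3.19%) and in batch 2 the higher (2.73% against 1.70%). The test below exchanges mice across batches, and the part of batch in the shares was not tested. The means were 6.96% ± 8.34 in food-deprived mice (SD, n = 3) and 6.40% ± 4.07 in normal mice (n = 5), a difference of 0.561 percentage points (two-sided exact permutation test over 56 splits, p = 0.911, where the smallest possible p is 0.0179). Without food-deprived replicate 3 the difference was -4.24 percentage points. Among Tany and Ependy cells alone, which share the ventricle wall, Tany made up 47.5%, 65.3% and 68.3% in food-deprived mice and 51.9%, 61.5%, 70.1%, 41.1% and 52.0% in normal mice.

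**Figure D2:**
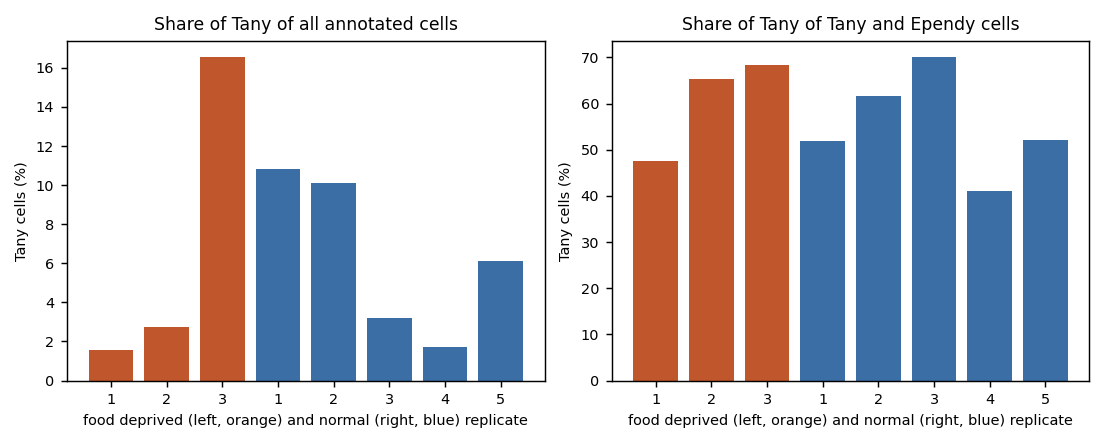
Share of Tany (%) among all annotated cells (left panel) and among Tany and Ependy cells (right panel), with 1 bar per mouse, food-deprived mice in orange and normal mice in blue. The share of all cells runs from 1.58% to 16.6% in food-deprived mice and from 1.70% to 10.9% in normal mice, and the share of Tany and Ependy cells from 47.5% to 68.3% in food-deprived mice and from 41.1% to 70.1% in normal mice.

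After 24 hours without food no gene of Tany passed an adjusted p of 0.05. Food-deprived replicates 1 to 3 were compared with normal replicates 3 to 5 over 5975 genes by edgeR's quasi-likelihood test with Benjamini-Hochberg adjustment, and 0 genes passed (0.0%), with the smallest adjusted p at 0.83. At an unadjusted p under 0.05 there were 186 genes. DESeq2 likewise called 0, with 75 genes at an unadjusted p under 0.05. In 239 genes (4.0%) every food-deprived mouse was above every normal mouse of the test, and in 294 genes (4.92%) every food-deprived mouse was below.

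Penk, which encodes the opioid precursor proenkephalin, had the smallest p. It stood at 145, 290 and 204 CPM in the food-deprived mice and at 59.7, 74.9 and 83.7 CPM in normal replicates 3 to 5, with no overlap. The log2 fold change was 1.56 ± 0.31 (SE, unadjusted p = 0.000152, adjusted p = 0.83 by edgeR's quasi-likelihood test with Benjamini-Hochberg adjustment). Normal replicate 2, outside the test with 16 cells, stood at 290 CPM, and normal replicate 1 at 48.3 CPM. The class means of Penk were 143 CPM in Tany, 7.29 CPM in Ependy and 19.9 CPM in Astro.

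The other higher genes without overlap that had the smallest p were Nos3, Cep70, Hmgb3, Sparcl1, Avpi1, Slc6a6, Ttll8, Ninj1 and Glul. Nos3, the endothelial type of nitric oxide synthase, stood at 60.5, 58.6 and 37.0 CPM in food-deprived mice and at 8.53, 8.32 and 10.9 CPM in normal mice (log2 fold change 2.41 ± 0.50). The values of normal replicates 3 to 5 rest on 3, 1 and 3 UMIs. Normal replicate 2 was at 64.5 CPM and normal replicate 1 at 24.2 CPM. Sparcl1, a matricellular protein, and Glul, glutamine synthetase, are astrocyte genes with 12450 and 2183 CPM in Astro. Sparcl1 stood at 989, 674 and 835 CPM in food-deprived mice and at 480, 574 and 477 CPM in normal mice, and Glul at 739, 912 and 814 CPM in food-deprived mice and at 466, 690 and 448 CPM in normal mice. The astrocyte marker sum moved the same way, as given above, and its part in these values was not tested.

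The lower genes without overlap that had the smallest p were Igfbp7, Tle6, Fezf2, Map3k12, Slc13a3, Dlg1, Ddit4l, Ide, Gpd2 and Chd7. Fezf2, a zinc-finger factor of forebrain progenitors, stood at 63.1, 81.4 and 55.5 CPM in food-deprived mice and at 139, 108 and 135 CPM in normal mice (log2 fold change -0.97 ± 0.27). Ide, the insulin-degrading enzyme, stood at 60.5, 39.1 and 49.3 CPM in food-deprived mice and at 96.7, 83.2 and 106 CPM in normal mice (-0.94 ± 0.30). Gpd2, the mitochondrial glycerol-3-phosphate dehydrogenase, stood at 60.5, 55.4 and 86.3 CPM in food-deprived mice and at 117, 108 and 146 CPM in normal mice (-0.86 ± 0.27). In normal replicates 1 and 2, which were outside the test with 41373 and 31034 UMIs, Fezf2 stood at 48.3 and 0 CPM, below all food-deprived mice, Ide at 121 and 64.5 CPM, and Gpd2 at 72.5 and 129 CPM. None of these passed the adjustment over all genes.

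With batch entered as a block, 6 of 5975 genes passed (0.1%), 2 higher and 4 lower in food-deprived mice. This contrast rests on food-deprived replicate 1 against normal replicate 3 and food-deprived replicate 2 against normal replicate 4, since batches 3 and 4 hold 1 mouse of the test each. Few mice are then left to estimate the spread of a single gene, so the p-values with the block lean on a spread pooled over genes. Cdkn1c, an imprinted inhibitor of the cell cycle (p57), stood at 28.9, 42.4 and 121 CPM in the food-deprived mice and at 159, 133 and 175 CPM in normal replicates 3 to 5. The groups did not overlap, and the fold change with the block was -2.06 ± 0.42 (log2, SE, adjusted p = 0.00641 by edgeR's quasi-likelihood test with Benjamini-Hochberg adjustment). Without the block it was -1.23 ± 0.40.

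Slc13a3, a sodium-coupled dicarboxylate transporter, stood at 10.5, 22.8 and 53.4 CPM in food-deprived mice and at 79.6, 108 and 91.0 CPM in normal mice (-2.51 ± 0.56 with the block, edgeR adjusted p = 0.0134). Col27a1, a fibrillar collagen, stood at 10.5, 6.52 and 39.1 CPM in food-deprived mice and at 93.8, 58.2 and 14.6 CPM in normal mice, and the groups overlap through food-deprived replicate 3 and normal replicate 5 (-3.09 ± 0.69, edgeR adjusted p = 0.0134). Scn7a stood at 81.5, 65.2 and 473 CPM in food-deprived mice and at 333, 99.8 and 669 CPM in normal mice, and these groups overlap widely (-1.54 ± 0.35, edgeR adjusted p = 0.0134). Both mice above 400 CPM are those of the batches with a lone mouse. In food-deprived replicates 1 and 2 and normal replicates 3 and 4, Col27a1 rested on 4, 2, 33 and 7 UMIs. For Slc13a3 these counts were 4, 7, 28 and 13 UMIs, and Scn7a in normal replicate 4 rested on 12 UMIs in 2 cells. Outside the test, normal replicates 1 and 2 had 0 CPM of Slc13a3 and of Col27a1, below every food-deprived mouse, 145 and 0 CPM of Cdkn1c, and 169 and 32.2 CPM of Scn7a.

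The higher genes with the block were Penk, at 1.58 ± 0.37 (edgeR adjusted p = 0.0205), and Hist1h1c, a linker histone, at 1.42 ± 0.34 (edgeR adjusted p = 0.0284). Hist1h1c stood at 287, 179 and 269 CPM in food-deprived mice and at 102, 74.9 and 306 CPM in normal mice, where normal replicate 5 is above all others, and normal replicates 1 and 2 stood at 218 and 193 CPM. In the low-Gapdh libraries alone, at a minimum of 10 cells, food-deprived replicates 1 and 2 against normal replicates 3 and 4 with the block gave 0 calls (175 at an unadjusted p under 0.05). Without the 14 cells that carried over 0.5% of UMIs from markers of other cell types, the fit with the block called 0 genes (262 at an unadjusted p under 0.05). With cells over 10000 UMIs left out it called 3 (Scg2, Gem and Cdkn1c), and with each cell thinned to 800 UMIs it called 0 of 1300.

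**Figure D3:**
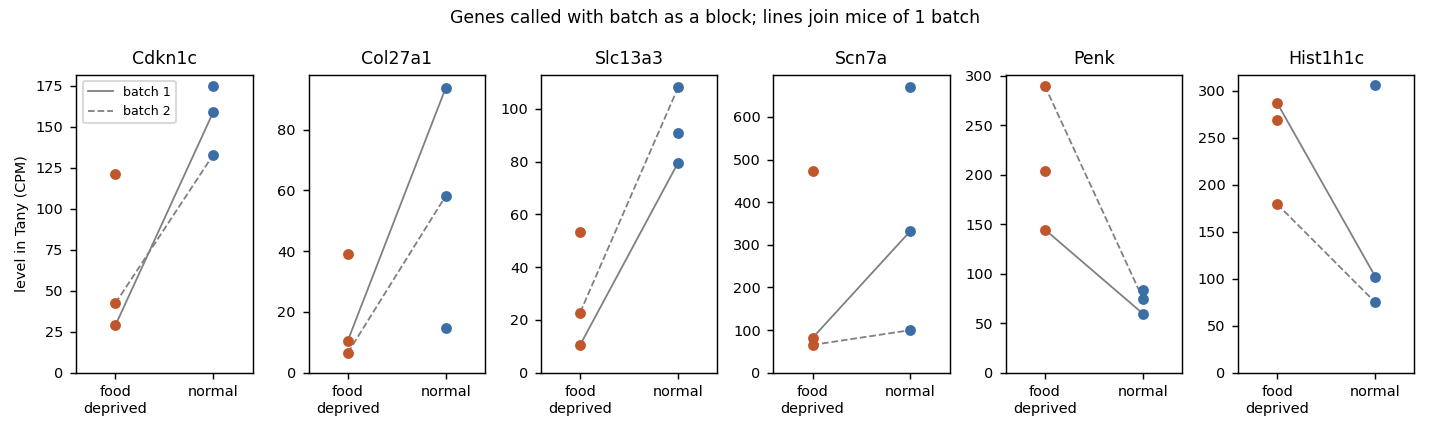
Levels in Tany (CPM) of the 6 genes called with batch as a block, with food-deprived mice on the left and normal replicates 3 to 5 on the right of each panel, and lines that join the mice of batch 1 (solid) and batch 2 (dashed). Cdkn1c, Slc13a3 and Penk do not overlap between the groups, while Col27a1, Scn7a and Hist1h1c do through the mice without a line.

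Gene groups of tanycyte function held no gene called by the test without the block, and the median log2 fold change of all genes tested was 0.00 (3014 positive, 2961 negative). The 5 class markers had a median of -0.27 (-0.50 with the block), the 4 ventral subtype markers tested -0.26 (-0.46 with the block), the 3 dorsal ones 0.24 (-0.37 with the block) and 3 hormone receptors -0.24 (0.17 with the block). Of 8 thyroid hormone genes tested, 6 had negative fold changes (median -0.19). Tshr stood at 84.2, 97.7 and 98.7 CPM in food-deprived mice and at 114, 108 and 116 CPM in normal replicates 3 to 5 (log2 fold change -0.27 ± 0.24). In normal replicates 1 and 2, outside the test, Tshr stood at 24.2 and 64.5 CPM, below all food-deprived mice. Of 7 glucose and lactate genes tested, all 7 had positive fold changes with a median of 0.15, and 1, the hexokinase Hk1, had an unadjusted p under 0.05. Of 25 progenitor genes tested, 13 were negative (median -0.06), and Ccnd2, a cyclin, stood at 163, 238 and 421 CPM in food-deprived mice and at 370, 416 and 480 CPM in normal mice. Medians of the retinoid, lipid, matrix, clock and cholesterol lists lay between -0.10 and 0.07.

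Endoplasmic reticulum chaperones had a median of -0.32 over 17 genes, 14 of them negative, and of -0.45 with batch as a block. In 4 of the 17 every food-deprived mouse was below the 3 normal mice, against 4.92% of all genes. Hspa5 (BiP), the main chaperone of this compartment, stood at 505, 498 and 783 CPM in the food-deprived mice and at 896, 882 and 1022 CPM in normal replicates 3 to 5 (log2 fold change -0.64 ± 0.22, unadjusted p = 0.0126). Normal replicates 1 and 2 stood at 701 and 870 CPM. Hsp90b1 (GRP94) stood at 692, 814 and 1194 CPM in food-deprived mice and at 1203, 1406 and 1470 CPM in normal replicates 3 to 5. Normal replicates 1 and 2 stood at 1063 and 870 CPM of Hsp90b1, within the range of the food-deprived mice. Creld2, a stress-induced disulfide isomerase, stood at 84.2, 84.7 and 92.5 CPM in food-deprived mice and at 162, 150 and 106 CPM in normal replicates 3 to 5. For Creld2, normal replicates 1 and 2 stood at 121 and 161 CPM. Of the 19 immediate early genes tested, 14 were positive with a median of 0.22, and the median was 0.09 with the block. Dusp1, a phosphatase induced by stress, stood at 655, 671 and 709 CPM in food-deprived mice and at 455, 541 and 469 CPM in normal replicates 3 to 5 (0.49 ± 0.20). Outside the test, Dusp1 stood at 314 CPM in normal replicate 1 and at 838 CPM in normal replicate 2, the latter above all food-deprived mice.

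The response of Tany to food deprivation differed from that of Ependy in 2 of 7108 genes (0.0281%) and from that of Astro in 1 of 7289 genes (0.0137%), by edgeR's quasi-likelihood test of the class by feeding term with the mouse as block. DESeq2 called 0 in both, with 82 and 86 genes at an unadjusted p under 0.05. Hspe1, a mitochondrial chaperonin, stood in Tany at 176, 264 and 247 CPM in food-deprived mice and at 253, 158 and 182 CPM in normal mice. In Ependy it stood at 135, 184 and 279 CPM in food-deprived mice and at 755, 358 and 398 CPM in normal mice, so the groups overlap in Tany and not in Ependy. The difference of the log2 responses was 1.60 ± 0.29 (adjusted p = 0.0159 by edgeR with Benjamini-Hochberg adjustment). Its adjusted p ran from 0.00303 to 0.0872 over the fits that leave out a mouse, and passed 0.05 without food-deprived replicate 1 and without food-deprived replicate 2.

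Scg2, secretogranin II, a granule protein of secretory cells, stood in Tany at 205, 19.6 and 269 CPM in food-deprived mice and at 42.6, 25.0 and 54.6 CPM in normal mice. In Ependy it stood at 31.8, 20.4 and 36.4 CPM in food-deprived mice and at 35.4, 32.5 and 81.5 CPM in normal mice. The difference was 2.74 ± 0.52 (edgeR adjusted p = 0.0185). It is carried by food-deprived replicates 1 and 3, and without either of these, or without normal replicate 5, the adjusted p passed 0.05, up to 0.324. Neuronal markers in Tany were highest in food-deprived replicate 1, and without the 14 cells rich in other markers Scg2 stood at 211, 19.6 and 266 CPM in food-deprived mice and at 43.8, 25.0 and 56.6 CPM in normal mice.

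Gfap, the astrocyte filament protein, stood in Tany at 132, 48.9 and 20.6 CPM in food-deprived mice and at 28.4, 25.0 and 18.2 CPM in normal mice, values that rest on 3 to 50 UMIs a mouse. In Astro it stood at 330, 172 and 194 CPM in food-deprived mice and at 1013, 395 and 451 CPM in normal mice, with no overlap. The difference was 2.84 ± 0.48 (edgeR adjusted p = 0.0340), and it no longer passed without food-deprived replicate 1 or without any of normal replicates 3, 4 and 5, with an adjusted p of up to 0.998.

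Tany cells differed widely among themselves along Col25a1, a transmembrane collagen published as a marker of tanycytes of the median eminence. A Col25a1 UMI was seen in 147 of 609 Tany cells (24.1%), against 0.484% of Ependy, 1.05% of Astro and 0.480% of MO cells. The shares per mouse were 20.7%, 14.8% and 27.2% in food-deprived mice and 21.4%, 12.5%, 23.2%, 16.7% and 31.3% in normal mice, which overlap. In the 5 mice with at least 10 cells on each side (food-deprived replicates 1 to 3 and normal replicates 3 and 5), 137 cells with Col25a1 were compared with 412 without, with the mouse as block and Col25a1 left out. Of 3467 genes tested, 143 were higher (4.12%) and 160 lower (4.61%) in cells with Col25a1 by edgeR's quasi-likelihood test with Benjamini-Hochberg adjustment. Of these, 129 were higher and 144 lower in each of the 5 mice, which are the mice that gave the calls, so this count is a description.

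Cells with Col25a1 were deeper, with a median of 5078 UMIs against 2891 without in food-deprived replicate 1 and of 2044 against 1491 in normal replicate 5, and 53 of the 137 held only 1 Col25a1 UMI. After thinning each cell to 1000 UMIs, 3 mice could be compared, and 69 of 1037 genes passed. Of the called genes, 147 could be tested in the thinned cells, where 142 had the same sign and 58 were called again. The thinned counts are drawn from the same cells and are no separate sample. Without food-deprived replicate 3, which gave the most cells, 176 genes were called.

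Dlk1, Fndc3c1 and Scn7a led the genes higher with Col25a1 by their p. In the values that follow, mice are in the order food-deprived replicates 1 to 3 and normal replicates 3 and 5. Dlk1, an imprinted transmembrane protein of the Notch ligand family, stood at 315, 674, 1084, 1082 and 501 CPM in cells with Col25a1 and at 28.7, 55.8, 103, 36.1 and 109 CPM in cells without (3.41 ± 0.25, log2 and SE, edgeR adjusted p = 1.4e-08). Scn7a stood at 236, 202, 1113, 1456 and 1394 CPM in cells with and at 25.1, 21.5, 113, 28.9 and 188 CPM in cells without (3.52 ± 0.27). Cells with Col25a1 were the higher in every mouse for both genes, and the groups of values do not overlap.

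Cldn10, a claudin of tight junctions, averaged 1533 ± 822 CPM in cells with Col25a1 and 223 ± 26.4 CPM in cells without (SD, n = 5 mice, log2 fold change 2.57 ± 0.22). The 2 imprinted genes Mest and Cdkn1c averaged 912 and 204 CPM in cells with Col25a1 and 171 and 68.1 CPM in cells without (2.20 ± 0.20 and 1.51 ± 0.27). Trpm3, a cation channel, averaged 381 ± 124 CPM in cells with and 52.7 ± 10.2 CPM in cells without (2.75 ± 0.22). Fndc3c1 had the largest fitted fold change of the 12 higher genes named by p, at 5.36 ± 0.40, with 212 ± 139 CPM in cells with and 3.86 ± 4.13 CPM in cells without. The size of this fold change leans on low levels in cells without, at 0, 0, 9.64, 3.61 and 6.06 CPM. In the thinned cells of the Col25a1 comparison Fndc3c1 was under the filter. Zfand6, Irgm1, Mtap1b, Gpc3, 1190002H23Rik and Gpx1 complete these 12, with log2 fold changes of 1.45 to 2.58. Scn7a and Cdkn1c are also among the genes lower in food-deprived mice with batch as a block, where the share of cells with Col25a1 was 20.7% and 14.8% in food-deprived replicates 1 and 2 and 23.2% and 16.7% in normal replicates 3 and 4. The part of that share in the values of these genes was not tested.

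Ramp1, Clu and Slc1a2 led the genes lower with Col25a1 by their p. Ramp1, a subunit of the receptor for calcitonin gene-related peptide, stood at 88.5, 40.5, 51.4, 13.4 and 45.6 CPM in cells with Col25a1 and at 582, 704, 742, 556 and 709 CPM in cells without (-3.80 ± 0.24, edgeR adjusted p = 4.53e-09). The 2 sets of values are far apart in all 5 mice. Slc1a2, the glutamate transporter GLT-1, averaged 156 ± 104 CPM in cells with and 997 ± 383 CPM in cells without (-2.72 ± 0.20), and Clu (clusterin) 178 ± 70.7 CPM in cells with and 1099 ± 194 CPM in cells without (-2.70 ± 0.19). Cst3 averaged 17120 ± 4487 CPM in cells with and 44670 ± 6742 CPM in cells without (-1.49 ± 0.14). Cpe, Sparcl1, Rarres2, Rtn1, Dynlrb2, Rnase4 and Fabp5 were also lower, with log2 fold changes from -3.45 to -1.50. Of the 160 lower genes, 75 had a higher class mean in Ependy than in Tany and 67 in Astro. Of the 143 higher genes these numbers were 25 and 29, and of all 3467 genes tested 1207 and 1071.

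**Figure D4:**
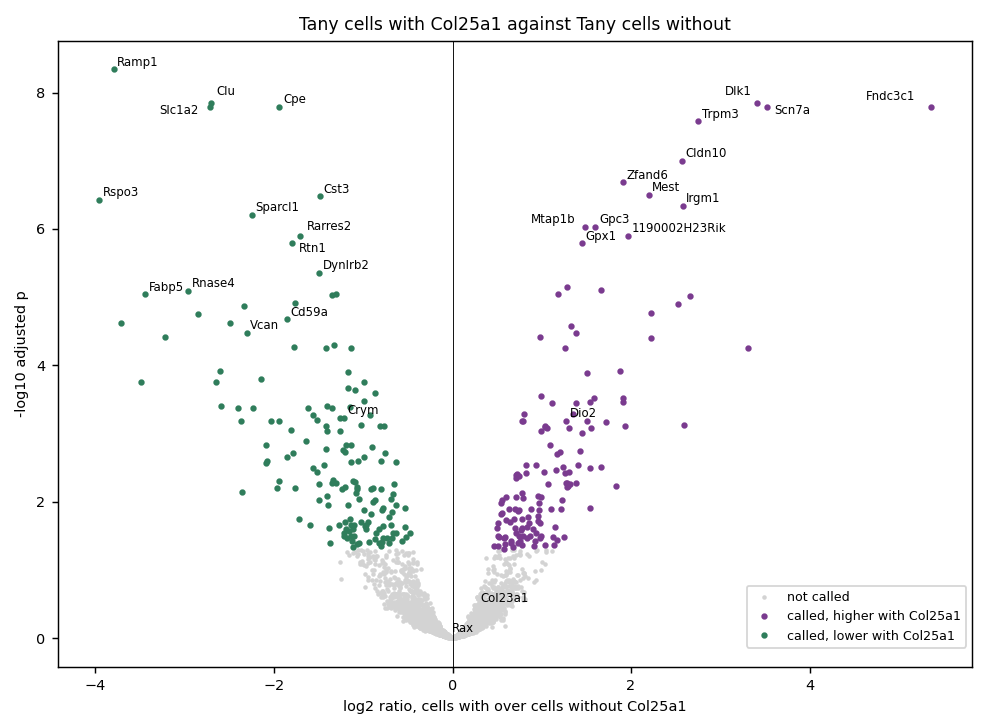
Log2 ratio of cells with over cells without Col25a1 (horizontal axis) and -log10 of the adjusted p (vertical axis) for the 3467 genes tested, with 1 point per gene and the named genes labelled. Ramp1, Clu and Slc1a2 lie furthest up on the lower side and Dlk1, Scn7a and Fndc3c1 on the higher side, while Rax and Col23a1 lie among the grey points that did not pass.

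The markers of the class split along Col25a1. Rax averaged 325 ± 161 CPM in cells with Col25a1 and 311 ± 97.3 CPM in cells without (-0.05 ± 0.19, edgeR adjusted p = 0.93), and Col23a1 1070 ± 153 CPM in cells with and 847 ± 153 CPM in cells without (0.27 ± 0.15, edgeR adjusted p = 0.333). Neither difference passed the test. The 2 thyroid hormone genes went apart. Dio2 stood at 167, 256, 365, 321 and 419 CPM in cells with Col25a1 and at 126, 129, 135, 108 and 84.8 CPM in cells without (1.27 ± 0.23, edgeR adjusted p = 0.000657). Crym stood at 275, 135, 120, 120 and 155 CPM in cells with and at 316, 442, 302, 365 and 382 CPM in cells without (-1.22 ± 0.21, edgeR adjusted p = 0.000591). Dio2 was higher and Crym lower in cells with Col25a1 in each mouse.

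**Figure D5:**
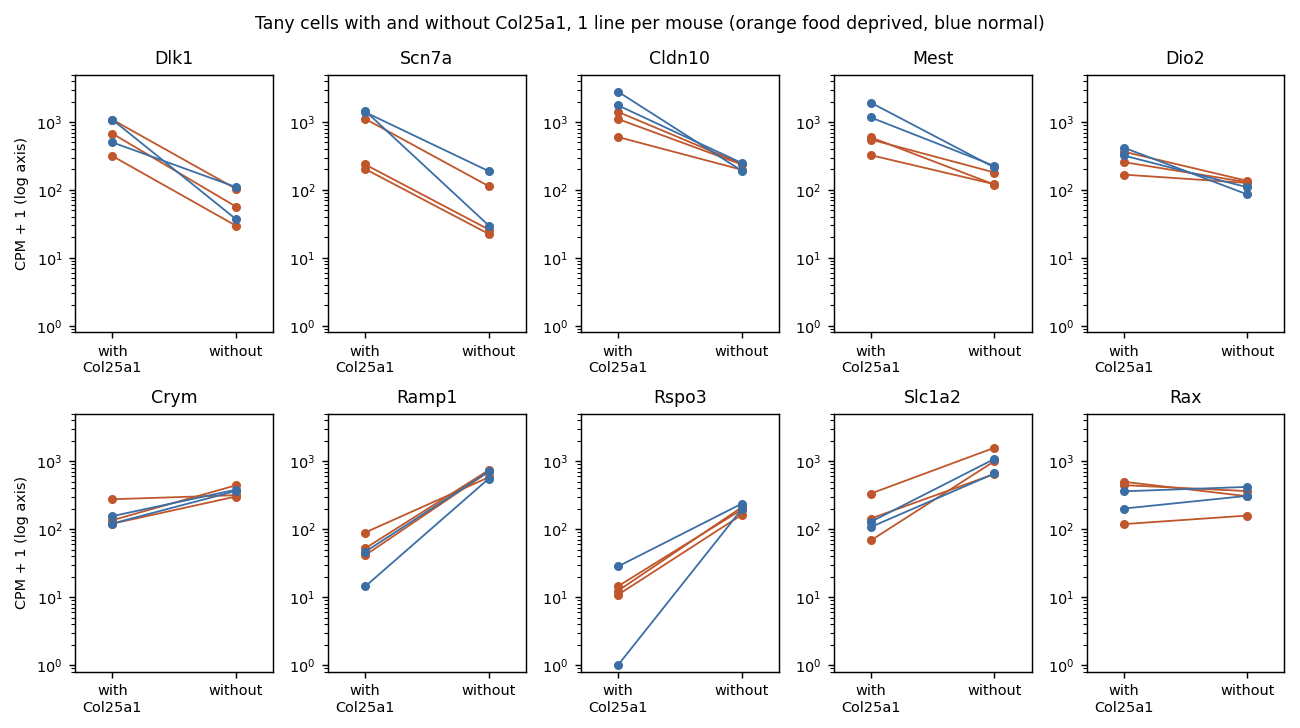
Levels (CPM + 1, log axis) of 10 genes in Tany cells with Col25a1 (left) and without (right), with 1 line per mouse, food-deprived mice in orange and normal replicates 3 and 5 in blue. The lines of Dlk1, Scn7a, Cldn10, Mest and Dio2 are higher with Col25a1 and those of Crym, Ramp1, Rspo3 and Slc1a2 lower in all 5 mice, while the Rax lines cross.

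Other published markers of tanycyte subtypes were listed as ventral (Adm, Fgf10, Frzb and Rspo3, beside Col25a1 itself) or dorsal (Cd59a, Slc17a8 and Vcan). Of the dorsal genes 2 were tested, and both were lower in cells with Col25a1. Cd59a, an inhibitor of complement, averaged 111 ± 45.6 CPM in cells with and 375 ± 220 CPM in cells without (-1.85 ± 0.24, edgeR adjusted p = 2.1e-05), and Vcan, the proteoglycan versican, 41.9 ± 22.0 CPM in cells with and 211 ± 48.1 CPM in cells without (-2.31 ± 0.31, edgeR adjusted p = 3.33e-05). Slc17a8, the vesicular glutamate transporter VGLUT3, was under the filter, with 0 of 535616 UMIs in cells with Col25a1 and 91 of 1264273 UMIs (72.0 CPM) in cells without. Set at a floor of 3 counts over all cells with Col25a1, it was at least 12.9-fold lower there, a bound for counting error only.

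The ventral genes did not move as a set. Fgf10 (0.44 ± 0.27) and Frzb (0.36 ± 0.23) did not pass the test. Adm, the vasodilator peptide adrenomedullin, was under the filter, with 9.84, 0, 97.0, 107 and 54.7 CPM in cells with Col25a1 and 3.59, 0, 6.43, 0 and 12.1 CPM in cells without. Rspo3, a secreted enhancer of Wnt signalling, went the other way, at 9.84, 13.5, 11.4, 0 and 27.3 CPM in cells with Col25a1 and 162, 193, 209, 195 and 236 CPM in cells without (-3.96 ± 0.37, edgeR adjusted p = 3.73e-07). The size of this fold change leans on low levels in cells with Col25a1. In the thinned cells of the Col25a1 comparison Rspo3 was under the filter.

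Of the other genes that stood highest in Tany, Tbx3 (1.54 ± 0.25), Deptor (2.22 ± 0.28), Cited1 (1.39 ± 0.19), Fzd5 (0.99 ± 0.23), Nt5dc2 (0.78 ± 0.23) and Cxcl10 (3.31 ± 0.47) were higher with Col25a1, and Lhx2, Rbp4, Efna5, Kctd14, E030019B13Rik and 6330403K07Rik did not pass. Cited1 and Fzd5 kept their sign in cells thinned to 1000 UMIs and did not pass there. Deptor stood at 167, 189, 308, 428 and 374 CPM in cells with Col25a1 and at 61.1, 64.4, 64.3, 72.2 and 18.2 CPM in cells without. Cxcl10 stood at 275, 755, 97.0, 1283 and 155 CPM in cells with and at 28.7, 107, 54.6, 3.61 and 12.1 CPM in cells without, so its level in cells with Col25a1 was far from even between mice.

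Cxcl10 and Irgm1 were joined by Irf1, an interferon-induced transcription factor named after its values were seen, at 446 ± 211 CPM in cells with Col25a1 and 127 ± 23.6 CPM in cells without (1.67 ± 0.20, edgeR adjusted p = 7.73e-06). In cells thinned to 1000 UMIs Irf1 did not pass (0.69, edgeR adjusted p = 0.375), Irgm1 did (1.90, edgeR adjusted p = 0.00443), and Cxcl10 was under the filter. Irgm1 averaged 485 ± 451 CPM in cells with and 67.7 ± 31.8 CPM in cells without, and its highest value, 1283 CPM, was in normal replicate 3. The interferon-element motif shown for both genes occurred upstream of 5 of the 111 called higher genes with an upstream sequence (B2m, Gbp7, Cxcl10, Cul1 and Irgm1), of 4 of the 107 called lower genes (Cd59a, Wls, Ttyh1 and Gpm6a) and of 3.04% of all genes.

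Progenitor genes went both ways, with 4 of 21 tested higher and 3 lower in cells with Col25a1 (median 0.04, against 0.00 for all genes tested, of which 4.12% were higher and 4.61% lower). The homeobox factors Six6 (1.59 ± 0.26) and Six3 (0.51 ± 0.16) and the receptor Fgfr1 (1.03 ± 0.22) were higher beside Cdkn1c. The inhibitors of differentiation Id3 (-2.24 ± 0.38) and Id4 (-1.42 ± 0.20) and Nes (-0.52 ± 0.15) were lower. Of 5 barrier genes tested, Cldn10 and Cdh2 (0.73 ± 0.16) were higher. Of 14 secreted signals, 3 were higher, Ptn (0.55 ± 0.14), Igfbp5 and Metrn, and 4 lower, Cst3, Clu, Rspo3 and Rarres2. Of 16 endoplasmic reticulum chaperones, 2 were higher (Herpud1 and Dnajb9) and 1 lower (Canx). The same 4.12% and 4.61% of all genes stand beside these counts. In cells thinned to 1000 UMIs, Cdh2, Nes, Six3, Id4, Ptn, Igfbp5, Metrn, Herpud1 and Canx kept their sign and did not pass.

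Markers of other cell types moved with the gate. Of 5 ependymal markers tested, 3 were lower in cells with Col25a1 (Ccdc153, Dynlrb2 and Rsph1), against 4.61% of all genes tested. Of 3 astrocyte markers tested, Slc6a11 was lower (-1.39 ± 0.34) and Aldoc higher (0.46 ± 0.14), and the endothelial marker Flt1 was lower (-2.09 ± 0.43), with a class mean of 95.3 CPM in Tany, 4.92 CPM in Ependy and 23.3 CPM in Astro. Without the 14 cells rich in other markers, 321 genes were called in place of 303.

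A gate on Cd59a, added after the data were seen, gave fewer calls. A Cd59a UMI was seen in 36.9% of Tany cells, but also in 28.8% of Ependy and 30.4% of MO cells, and in 18.1% of Tany, 8.72% of Ependy and 15.3% of MO cells once thinned to 800 UMIs. In the same 5 mice, 35 of 3717 genes passed (0.942%), 28 higher and 7 lower in cells with Cd59a by edgeR's quasi-likelihood test with Benjamini-Hochberg adjustment. Sparcl1 (1.57 ± 0.17), Ramp1 (1.06 ± 0.13), Slc1a2 (0.96 ± 0.16) and Rspo3 (1.33 ± 0.33) were higher with Cd59a, and Cldn10 (-0.85 ± 0.16) and Dio2 (-0.99 ± 0.20) lower. Deptor, at 91.9 CPM in cells with Cd59a and 172 CPM in cells without, was lower too. Agt, the precursor of angiotensin, averaged 92.3 CPM in cells with Cd59a and 13.6 CPM in cells without (2.64 ± 0.39).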

How the data were processed

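The authors deposited raw UMI counts per gene and cell for each of 17 libraries and for their 14437 annotated cells together (23284 genes), with the cluster assigned to each cell as a word (unit other), under a column name that refers to an SVM. The genome build was mm9, per the submitters' processing notes, with the aligner and counter not given in the sources used here. All 14437 cells were joined to a library. Doublets were not called, and nothing was removed beyond the authors' annotation. p-values set differences against the spread between mice. With few mice, every edgeR fit, the gate and interaction fits included, estimates this spread in part from all genes together. The fits with batch as a block lean on the pooled spread most.

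Counts were summed per mouse over the cells of a class. Mice with at least 20 cells entered the main food-deprivation tests and mice with at least 10 cells on each side the Col25a1 and Cd59a gates. Tests were edgeR 4.0.16's two-sided quasi-likelihood test (R 4.3.3) with TMM factors, filterByExpr and Benjamini-Hochberg adjustment over all genes tested at 0.05. DESeq2 1.42.0 was an alternative. CPM use plain totals. The main fits of food deprivation, of the class by feeding term and of the Col25a1 gate were tested on simulated data. The fit with batch as a block and the other alternatives were not. Intervals and floors cover counting error only. The precision is limited by 3 and 3 mice and by the UMIs of a mouse.

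The members, gene lists and tests were chosen with earlier results of these data known. Genes were named by rule: the markers, the 20 genes furthest above both other classes, genes called with or without batch as a block, the 10 higher and 10 lower genes without overlap with the smallest p, the 12 higher and 12 lower Col25a1 genes with the smallest p, listed subtype markers, called interaction genes, and up to 4 members of a list. Upstream sequences came from RefSeq (GRCm38.p6), matched by symbol. Some genes that the rule named are not reported here.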

Additional observations from a re-analysis of the deposited data

Results flagged for a closer look

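For 12 measures, the mouse furthest from the others among the 5 normal mice was tested with Dixon's ratio, which flags about 1 group in 20 by chance. Cdkn1c had 0 CPM in the Tany cells of normal replicate 2, while the other normal mice stood at 133 to 175 CPM. Penk had 290 CPM in the Tany cells of the same mouse, while the other normal mice stood at 48.3 to 83.7 CPM. That mouse held 16 Tany cells and was outside the main fits of food deprivation, the interaction fits and the Col25a1 gate. It was in the share test and in alternative food-deprivation fits at a minimum of 10 cells.

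The responses of 3 genes to food deprivation differed between classes by the interaction test. The log2 response of Hspe1 in Tany minus that in Ependy was 1.60. For Scg2 this difference was 2.74. For Gfap, in Tany minus Astro, it was 2.84. Each of these calls was lost when some single mouse was left out, and DESeq2 made none of them.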

How the results depend on the processing

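The count of genes called for food deprivation in Tany, 0, became 13 with every gene with a count tested, 6 with batch as a block, 8 with batches 1 and 2 only and batch as a block, 9 with the libraries that retained Gapdh only (2 food-deprived mice against 1 normal mouse, which is assumed to vary like the others), 3 with cells of at most 10000 UMIs and batch as a block, and 0 to 1 with a mouse left out. Scg2 was called without food-deprived replicate 2 and Cdkn1c without food-deprived replicate 3. The count against Ependy, 2, became 0 with DESeq2, 15 with every gene, 7 with batches 1 and 2 only and 2 to 9 with a mouse left out. The count against Astro, 1, became 0 with DESeq2, 6 with every gene and 0 to 3 with a mouse left out. The Col25a1 count, 303, became 188 with DESeq2, 505 with every gene (191 higher, 314 lower), 69 with thinned cells and 176 to 342 with a mouse left out. The share difference became -7.4 percentage points among Tany, Ependy and Astro cells together and ran from -4.24 to 3.25 with a mouse left out. In retained libraries Col27a1 turned to 1.02 and Hist1h1c to -0.47, and Hist1h1c to -0.02 at a minimum of 10 cells. Against Col25a1, Rax ran from -0.24 to 0.1 with a mouse left out and was positive in the fits without food-deprived replicate 1 and without either normal mouse, and Frzb to -0.38 in thinned cells and -0.3 with at least 2 UMIs of Col25a1. The cause of these changes was not tested. Of 421 single-gene values for food deprivation, 402 kept side and direction, as did 341 of 346 for Col25a1. Of 27 values for the genes of the interaction tests, 14 did so and 13 became weaker. Low-Gapdh libraries alone at 20 cells leave 1 normal mouse and were not run; at 10 cells (2 mice a group, batch as a block) they called 0, as did retained libraries at 10 cells (2 food-deprived mice, 4 normal mice). The pairs of mice come from the batches, and their fit is the one with batch as a block. By replicate number, no paired analysis was possible because equal numbers mark no shared batch.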
